A study of Mus musculus with 6 samples.

Results

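The receptors and co-receptors through which Nogo-A acts were followed in whole spinal cord of uninjured mice with and without Nogo-A. Nogo-A, which sits in the membranes of myelin-forming cells and of some nerve cells, keeps axons from growing, and the components described are Rtn4r, Rtn4rl1, Rtn4rl2, Pirb, S1pr2, Lingo1, Ngfr, Tnfrsf19 and Tspan3. Every probe set annotated to these 9 genes was taken, and the array holds 18193 genes in all that are named by a probe set with 1 symbol. Of 19 probe sets annotated to them among 45101 on the array, 16 carry that symbol alone and are described here. The other 3 are shared between Pirb and its near-identical relatives and were not used, because their signal cannot be assigned to 1 gene. Cords came from 3 wild type animals and 3 Nogo-A knockout animals, all untreated males of 4 months labelled C57Bl/6, and each was measured on an Affymetrix Mouse 430 2.0 array of its own. The construction of the knockout and the level of the cord are not given in the sources used here, and each group of 3 animals is the only sample of its genotype. An array of this type reports each transcript by one or several probe sets of short oligonucleotides, and their intensities are in arbitrary units that can be compared between arrays but not between probe sets.

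Rtn4r encodes the Nogo receptor, a leucine-rich repeat protein held to the outer face of the neuronal membrane by a lipid anchor. It binds a loop shared by all Nogo proteins as well as the myelin proteins MAG and OMgp, and because it has no part inside the cell it signals through partners that span the membrane. Lingo1 is such a partner, and the p75 neurotrophin receptor encoded by Ngfr and its relative TROY, encoded by Tnfrsf19, can each fill the third place of the complex, which activates the small GTPase RhoA in the growth cone. A separate stretch that is found only in Nogo-A acts through the sphingolipid receptor encoded by S1pr2 together with the tetraspanin Tspan3, and Pirb is an inhibitory receptor of immune cells and some neurons that binds the same myelin ligands.

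The labels were checked first by the targeted gene. A probe set of Rtn4, the gene that encodes Nogo-A, read 3560.2, 2790.4 and 2802 in wild type but 78.2, 9.17 and 5.08 in knockout, and of all tested probe sets only that one passed (limma, Benjamini-Hochberg adjusted p = 0.0151). That call was lost, with 0 probe sets passing in limma, when the intensity trend was dropped or when wild type replicate 2 or knockout replicate 2 was left out. The arrays themselves were not alike. The 5th percentile of the signals on wild type replicates 1 to 3 stood at 5.26, 10.5 and 19.98, and on the knockout arrays at 4.57 to 4.92, and wild type replicate 3 had a mean correlation of 0.930 with the others, against 0.952 to 0.961 for the other 5 arrays. Array medians ran from 144.1 to 195.6. Where wild type replicate 3 holds the highest or lowest wild type value of a tested component, the change without it is therefore given.

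No receptor or co-receptor passed the test between genotypes. A probe set was tested where 2 or more of the 3 arrays of a genotype had it at or over their median, a rule that stands in for a call of presence, and 11 of the 16 probe sets were tested, which stand for 7 of the 9 genes. Rtn4rl2 and Pirb had no tested probe set. Of the 11, 8 met the rule in both genotypes, while those of Rtn4r, S1pr2 and Ngfr met it through the knockout arrays alone, so for Rtn4r and S1pr2, with higher knockout means, inclusion itself depended on the knockout signal. At an adjusted p under 0.05 (limma) 0 of the 11 were called, against 0.00425% of all 23525 tested probe sets. At an unadjusted p under 0.05, 1 was higher in knockout and 0 were lower, where 4.31% and 3.98% of all tested probe sets were so, and knockout lay above every wild type array in 2 and below in 0, where the shares over all tested probe sets were 7.85% and 6.62%. Counts this small do not stand apart from those shares. The median log2 change was 0.076 over the 11 and 0.0079 over all tested probe sets, with 6 values above 0 and 5 below.

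**Figure D1:**
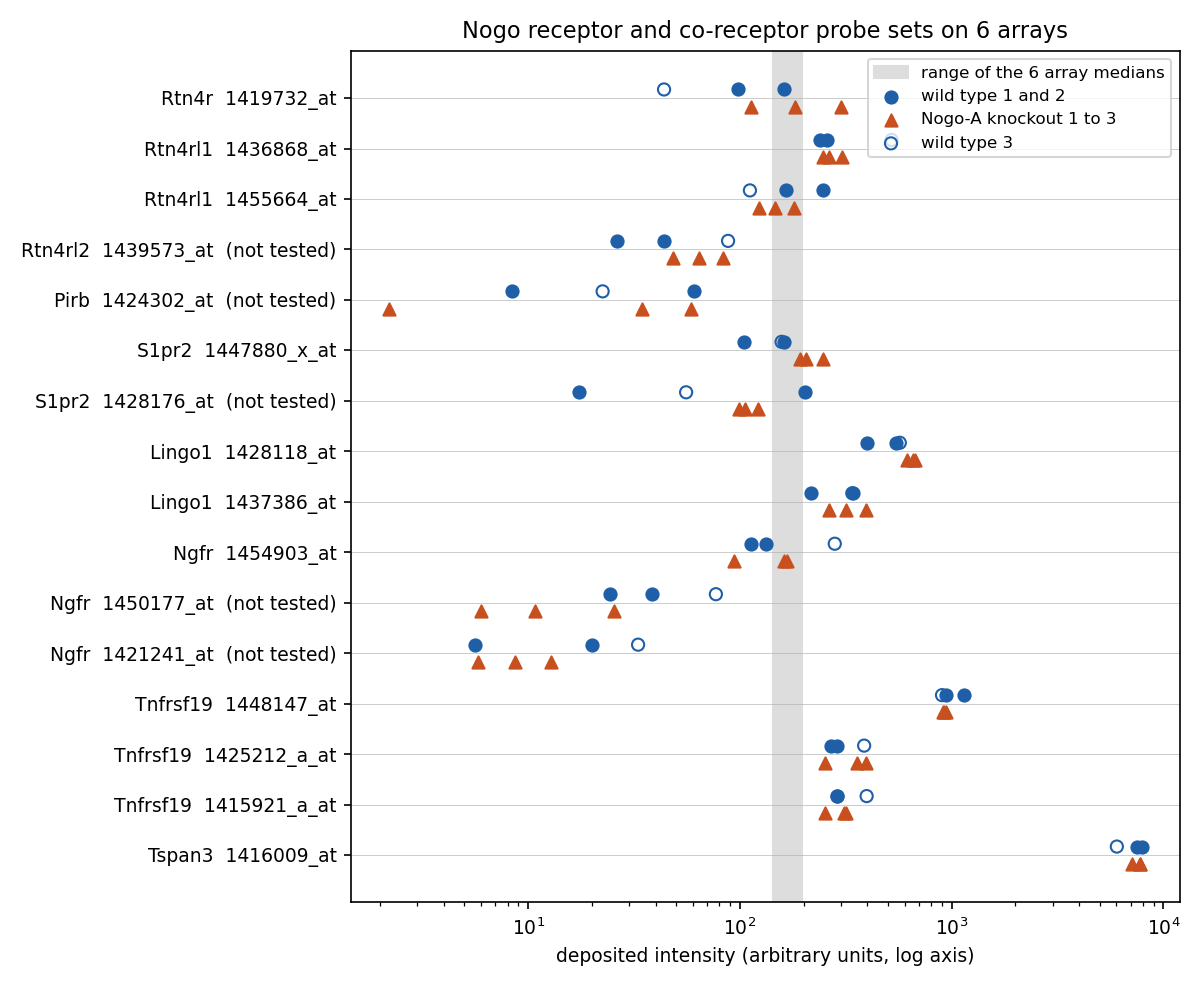
Deposited intensity (arbitrary units, log axis) of the 16 probe sets, 1 row each, with a circle for each wild type array, open for replicate 3, and a triangle for each of the 3 knockout arrays; the grey band spans the array medians, 144.1 to 195.6. Most rows show overlapping genotypes, and rows are not to be compared with each other because probe sets differ in affinity.

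Of the receptors that bind the loop common to all Nogo proteins, Rtn4r was dim in wild type cord. Its only probe set (1419732_at) read 98.1, 161 and 43.9 in wild type and 300.4, 182 and 113 in knockout. All 3 wild type signals were under the median of their array, the knockout signals were at or above it on 2 of 3 arrays, and the genotypes overlapped. The log2 change was 1.05 (SE 0.55, limma adjusted p = 0.633), and its 95% interval from -0.16 to 2.27 holds both no change and a change of 4.82-fold. The lowest wild type signal came from replicate 3, and without that array the log2 change was 0.55 (limma adjusted p = 0.632). At an unadjusted p under 0.05 Rtn4r was reached after division of each array by its median, with the replicate block and without wild type replicate 2 or knockout replicate 3, but its adjusted p was 0.382 or more in every fit that tested it. It fell below the filter without knockout replicate 1 or 2 and with the 75th percentile filter.

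Rtn4rl1 and Rtn4rl2 are close relatives of the Nogo receptor, and the former also binds the sugar chains of chondroitin sulfate proteoglycans. One Rtn4rl1 probe set (1436868_at) read 238, 259 and 521 in wild type and 246, 262 and 302 in knockout. It was above the array median on all 6 arrays, and its highest value was that of wild type replicate 3, the array with the raised dim signals. Its log2 change was -0.24 with all arrays (limma adjusted p = 0.837) and 0.12 without that array. The other Rtn4rl1 probe set (1455664_at) read 165, 247 and 112 against 147, 123 and 180.3, with wild type replicate 3 now the lowest. Its log2 change of -0.16 (limma adjusted p = 0.923) became -0.45 without that array and 0.089 after quantile normalization. Both Rtn4rl1 probe sets thus met the filter in both genotypes, 1455664_at on 2 of 3 arrays of each. Neither gave a change whose sign held across scalings and arrays. The probe set of Rtn4rl2 (1439573_at), a receptor that binds MAG, read 43.6, 26.3 and 88.0 in wild type and 63.8, 48.2 and 83.4 in knockout, below the array median on every array. The genotypes overlapped, and the filter left this probe set out.

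Pirb was as dim. Its own probe set (1424302_at) read 8.42, 60.7 and 22.5 in wild type and 34.7, 2.20 and 59.1 in knockout, below the median on all 6 arrays and with a wide spread within each genotype. Microglia and cells of the blood, where Pirb is known to act, were followed by their markers. Markers of microglia and macrophages were tested in 7 of 7 and summed to 7593 to 10230 in wild type and 7767 to 8978 in knockout. The 5 neutrophil markers summed to 2261, 8434 and 12990 on wild type replicates 1 to 3 and to 9125 to 11221 in knockout, so wild type replicate 1 carried the least.

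S1pr2, the receptor of the stretch particular to Nogo-A, held 1 of the 2 tested probe sets in which every knockout array lay above every wild type array. That probe set (1447880_x_at) read 162, 104 and 157 in wild type, or 141 ± 32.2, and 205, 192 and 247 in knockout, or 214.6 ± 28.7 (SD, n = 3 each). The fold was 1.54 with a 95% interval of 0.957 to 2.48, which includes no change (limma adjusted p = 0.619), and an exact 2-sided permutation test gave p = 0.1, the smallest that 3 against 3 arrays allow. Its unadjusted p was under 0.05 after division by the array median, after quantile normalization, without the trend and without wild type replicate 3, with an adjusted p of 0.352 or more in each fit that tested it (limma). Only 1 of 3 wild type signals reached its array median. The ending of its name marks a probe set with probes that can also bind other transcripts, so its assignment to S1pr2 is uncertain. The other S1pr2 probe set (1428176_at) read 202, 17.4 and 55.7 in wild type and 106, 122 and 99.3 in knockout, overlapped, and was not tested. Of the 5 markers of meningeal and perivascular fibroblasts, 4 had an unadjusted limma p under 0.05 as higher and 1, Lum, as lower. Over all tested genes these shares were 4.95% and 3.25%. The 5 markers summed to 6348 to 8187 in wild type and 9357 to 10444 in knockout, without overlap. Their part in the S1pr2 signal was not tested. In a bulk sample, fewer cells of a type and less RNA per cell cannot be told apart.

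Tspan3, the tetraspanin partner of S1pr2, was well above the array median on all 6 arrays. Its probe set (1416009_at) read 7473, 7930 and 6027 in wild type and 7734, 7084 and 7718 in knockout. The lowest value was again that of wild type replicate 3, and the genotypes overlapped. The fold was 1.06 with a 95% interval of 0.895 to 1.25 (limma adjusted p = 0.859), and the log2 change of 0.081 became -0.024 after quantile normalization and -0.037 without wild type replicate 3. This was the narrowest interval among the 11.

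Lingo1 gave the only unadjusted p under 0.05 among the components. Lingo1 is a leucine-rich repeat and immunoglobulin domain protein of neurons that also holds back the maturation of oligodendrocytes. One probe set (1428118_at) read 548, 397 and 569 in wild type, or 505 ± 93.6, and 659, 618 and 671 in knockout, or 649 ± 27.9 (SD, n = 3 each). All 3 knockout values lay above all 3 wild type values. The fold was 1.30 with a 95% interval of 1.01 to 1.68 (limma p = 0.0426, adjusted p = 0.599), and the exact 2-sided permutation p was 0.1, the smallest possible. Wild type replicate 2 was the lowest array, and without it the log2 change was 0.22 (limma adjusted p = 0.837, or 0.195 before adjustment), against 0.38 with all arrays and 0.48 without wild type replicate 3, the highest of its genotype. The p was also over 0.05 without any 1 of the knockout arrays (0.0991, 0.0641 and 0.108 for replicates 1 to 3, in limma), without the intensity trend in eBayes (0.0577) and with the filter at the 75th percentile (0.0527). The other Lingo1 probe set (1437386_at) read 217, 342 and 339.6 in wild type and 263, 318 and 392 in knockout, above the median on every array and overlapping. Its log2 change was 0.13 (95% interval -0.41 to 0.66, limma adjusted p = 0.904), and across the 6 arrays the log2 values of the 2 probe sets had a Pearson correlation of -0.021. The probe sets of this gene thus did not move together, and what stretch of the transcript each probe set covers is not given in the sources used here. Of the 5 oligodendrocyte markers found, 2, Mbp and Opalin, had an unadjusted limma p under 0.05 as higher and 0 as lower. Over all tested genes these shares were 4.95% and 3.25%. Mbp and Opalin lay above every wild type array in knockout, at log2 changes of 0.30 and 0.49 (limma adjusted p = 0.591 each). Mobp, Mog and Cldn11 overlapped, with log2 changes of 0.12, -0.039 and -0.067. The 5 markers summed to 76202 to 80229 in wild type and 86956 to 96044 in knockout, and Mbp and Mobp made up most of that. The 7 neuron markers summed to 89566 to 113076 in wild type and 109447 to 111159 in knockout. Of them 1, Rbfox3, had an unadjusted p under 0.05 as higher (limma adjusted p = 0.599) and 0 as lower, where 4.95% and 3.25% of all tested genes did. Another 3, Syt1, Tubb3 and Nefl, lay above every wild type array in knockout, where 9.06% of all tested genes did. Snap25, Nefm and Map2 overlapped, with log2 changes of 0.050, 0.026 and -0.044. The part of the oligodendrocyte and neuron markers in the Lingo1 signal was not tested.

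The sequences before the start sites of S1pr2 and Lingo1 are shown because these genes hold the only tested probe sets without overlap between genotypes. The S1pr2 probe set met the filter through the knockout arrays alone, and its assignment to that gene is uncertain. The sequences are the 250 bases upstream of each RefSeq start in the mouse assembly GRCm38.p6. All are on the minus strand of chromosome 9 and read in the direction of transcription. Capitals mark the GC box, GGGCGG on either strand. The first lies at chr9:20976794-20977043, and the others, before the 2 annotated starts of Lingo1, lie at chr9:56796311-56796560 and chr9:56635649-56635898.
S1pr2: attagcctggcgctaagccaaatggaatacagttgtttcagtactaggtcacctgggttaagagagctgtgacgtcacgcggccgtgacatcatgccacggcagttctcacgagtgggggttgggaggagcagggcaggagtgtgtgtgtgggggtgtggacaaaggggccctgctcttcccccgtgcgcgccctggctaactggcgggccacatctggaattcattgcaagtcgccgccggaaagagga
Lingo1 first start: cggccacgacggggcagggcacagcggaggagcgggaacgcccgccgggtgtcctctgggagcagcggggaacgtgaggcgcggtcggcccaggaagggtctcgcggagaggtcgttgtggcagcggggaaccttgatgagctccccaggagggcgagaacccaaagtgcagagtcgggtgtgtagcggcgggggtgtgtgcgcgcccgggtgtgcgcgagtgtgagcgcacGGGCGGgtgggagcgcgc
Lingo1 second start: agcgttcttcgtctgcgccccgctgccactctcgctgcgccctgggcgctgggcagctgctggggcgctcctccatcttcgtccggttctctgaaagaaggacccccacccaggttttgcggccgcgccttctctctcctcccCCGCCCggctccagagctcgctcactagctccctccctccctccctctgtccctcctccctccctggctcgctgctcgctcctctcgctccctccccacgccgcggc
Each Lingo1 window held 1 GC box and that of S1pr2 held 0, where 32.7% of 32851 windows of the same length before RefSeq starts held at least 1. A CCAAT box (CCAAT, either strand) was in none of the 3 windows and in 33.8% of all windows, and a TATA box (TATAAA, either strand) was in none and in 12.4%. The Lingo1 windows had a GC content of 72.8% and 70.4%, with 31 and 22 CpG dinucleotides, and the S1pr2 window 59.2% and 14, against a median GC content of 52.4% over all windows. No other motif searched overlapped a GC box there, and no match says only that the letters are not in these windows. Which start of Lingo1 the cord uses cannot be read from the array. Lingo1 and Tspan3 are near neighbours in that assembly, with 2 protein-coding genes between them, and S1pr2 lies on the same chromosome. Rtn4rl1 and Ngfr lie on chromosome 11 with Rtn4, separated from it by 596 and 872 protein-coding genes.

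**Figure D2:**
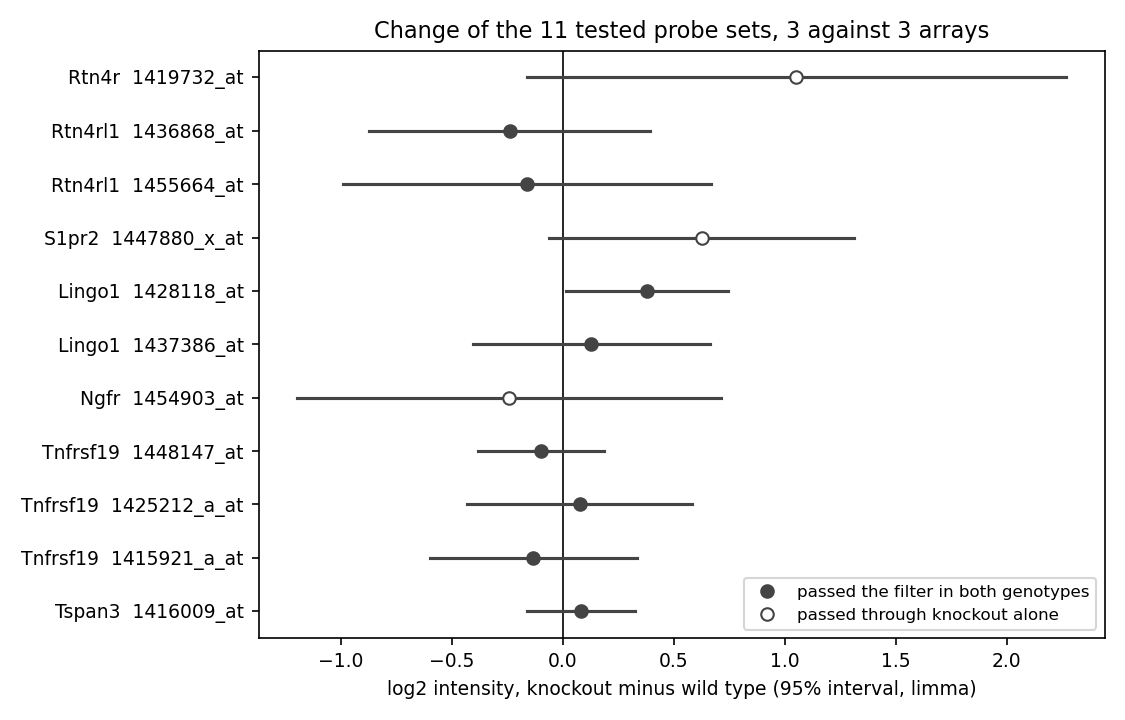
Difference in log2 intensity, knockout minus wild type, for the 11 tested probe sets (points) with 95% intervals from limma (bars), 3 against 3 arrays; open points passed the filter through knockout alone. The interval lies wholly above 0 only for 1 Lingo1 probe set (0.015 to 0.75), whose adjusted p was 0.599.

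Ngfr and Tnfrsf19, the alternative signalling partners from the tumour necrosis factor receptor family, differed in how many of their probe sets met the filter. Ngfr, which is also made by Schwann cells of the nerve roots, read 113, 133 and 281 in wild type and 161, 93.8 and 167 in knockout at its brightest probe set (1454903_at). The highest value was that of wild type replicate 3, and the genotypes overlapped. The log2 change was -0.24 with a 95% interval of -1.198 to 0.71 (limma adjusted p = 0.898), and 0.16 without wild type replicate 3. The other Ngfr probe sets were below the median on all arrays, with 24.5 to 77.0 in wild type and 6.00 to 25.3 in knockout (1450177_at) and 5.62 to 33.1 and 5.83 to 12.8 (1421241_at). In both of these too the highest signal was on wild type replicate 3, the array whose 5th percentile of 19.98 was also the highest. The 2 Schwann cell markers found summed to 13063 to 15440 in wild type and 16035 to 22387 in knockout, without overlap. Nearly all of that sum was Pmp22. Both markers had an unadjusted limma p under 0.05 as higher, where 4.95% of all tested genes did. Pmp22, at a log2 change of 0.45, did not overlap, and Ncmap, at 0.36, did (limma adjusted p = 0.591 and 0.598). At 1454903_at, 2 of the 3 knockout values of Ngfr lay within its wild type range. The part of Schwann cells in the Ngfr signal was not tested.

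Tnfrsf19 was above the array median on all 6 arrays at each of its 3 probe sets. The brightest (1448147_at) read 941, 1140.4 and 901 in wild type and 944, 909.7 and 917 in knockout, a fold of 0.934 with a 95% interval of 0.767 to 1.14 (limma adjusted p = 0.852). Its knockout SD of 18.2 was well under the wild type SD of 128, which rests on wild type replicate 2. The others read 288, 270.2 and 386 against 393, 251 and 357 (1425212_a_at), with a log2 change of 0.076, and 287, 288 and 397 against 252, 318 and 311 (1415921_a_at), with a log2 change of -0.13. Their limma adjusted p-values were 0.947 and 0.883. The genotypes overlapped in all 3, and without wild type replicate 3, the lowest wild type array in the first probe set and the highest in the others, the changes in the order given were -0.17, 0.23 and 0.021. Across the 6 arrays the correlations between the log2 values of these probe sets were -0.40, -0.38 and 0.12, and that between the Rtn4rl1 probe sets was -0.52. In Rtn4rl1, Lingo1 and Tnfrsf19, the genes with more than 1 tested probe set, at least 1 pair thus did not move together.

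**Figure D3:**
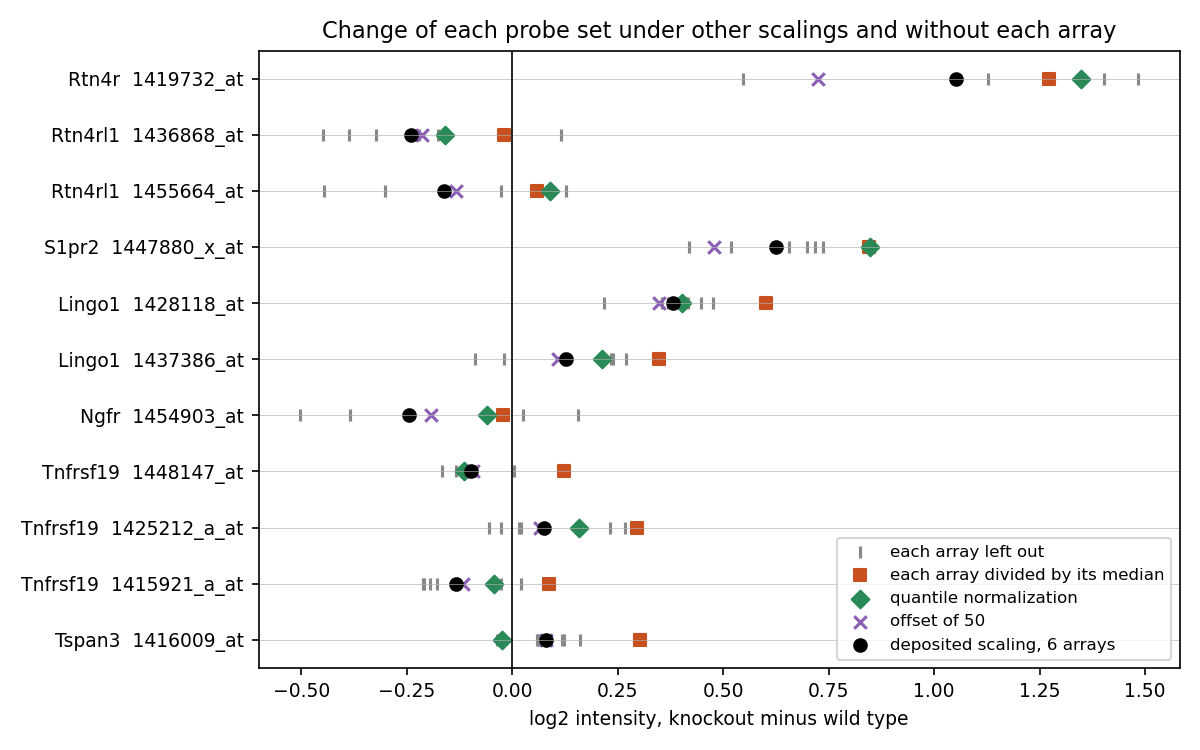
Difference in log2 intensity, knockout minus wild type, for the 11 tested probe sets (rows) with the deposited scaling (black circles), other scalings or an offset (coloured marks) and each array left out in turn (grey bars). Rtn4r, S1pr2 and 1 Lingo1 probe set lie above 0 under all of these that tested them, from 0.22 to 0.60 for Lingo1, and each of the other 8 crosses 0. Rtn4r, S1pr2 and Ngfr passed the filter through knockout alone, a rule that favours higher knockout signals, although Ngfr was at -0.24.

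The scaling decides how such small differences are read. Dividing each array by its own median moved the median difference over all that were tested from 0.0079 to 0.23, because wild type replicates 2 and 3 had the highest medians. Relative to that shift the change of Lingo1 (1428118_at) was 0.37, that of S1pr2 (1447880_x_at) 0.62, that of Rtn4r 1.04 and that of Tspan3 0.073, and they are the same with the deposited scaling, since this division moves all probe sets alike. The changes of Rtn4rl1 (1455664_at) and of Tnfrsf19 (1448147_at and 1415921_a_at), which it turns above 0, likewise stayed at -0.17, -0.11 and -0.14 relative to the shift. After quantile normalization, relative to a median of 0.020, the changes of Lingo1, S1pr2, Rtn4r and Tspan3 were 0.38, 0.83, 1.33 and -0.044. Those of Rtn4rl1 and Tnfrsf19, in the order just given, were 0.070, -0.13 and -0.063.

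Other genes of the pathway were counted in 4 lists, 1 probe set a gene, and 49 of 64 genes were tested. Unadjusted p-values under 0.05 were found for 8 of the 49, all higher in knockout, against 4.95% of all 11645 tested genes in that direction and 3.25% in the other. None of the 49 passed at an adjusted p under 0.05 (limma), and the smallest adjusted p among them was 0.591. Their median log2 change was 0.097 against 0.028 over all tested genes. Division by the array median gave 15 higher, where 13.7% of all tested genes were higher and 0.85% lower. Without wild type replicate 3 there were 12 higher and 1 lower (7.55% and 3.78% of all genes), and without wild type replicate 1 there were 5 higher (7.58% of all genes). Without knockout replicates 1 and 3 there were 5 and 4 higher (2.59% and 1.94% of all genes).

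The ligands of the receptors had a median log2 change of 0.13 over 8 tested genes, with 1 at an unadjusted p under 0.05. That was Rtn4 itself at its brightest probe set, which read 19922, 21162 and 15477 in wild type and 24549, 24598 and 24730 in knockout (limma adjusted p = 0.591), a probe set that does not detect the loss of Nogo-A. Rtn4 was also higher without overlap at 1421116_a_at, 1435284_at and 1439650_at (folds 1.47, 1.37 and 1.62, limma adjusted p = 0.538, 0.591 and 0.591). The targeted gene is thus 1 of the 8 pathway genes counted above. Mag, a myelin protein that binds the Nogo receptors, read 5428, 5791 and 7061 against 7092, 6345 and 8038, with overlap (limma adjusted p = 0.625). Bdnf, a neurotrophin that reaches p75 in its unprocessed form, read 299.5, 249 and 412 against 233, 235 and 268. H2-K1, a class I molecule of the kind Pirb binds, had a log2 change of 0.15, and Omg, which encodes OMgp and was chosen after its values were seen, had 0.064. Each of the other 7 tested ligands had overlapping genotypes.

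Modulators and other receptors of the same ligands had a median of 0.20 over 9 tested genes, and 2 had an unadjusted p under 0.05. Olfm1, a secreted protein that binds the Nogo receptor, read 2049.7, 1758 and 1962 in wild type and 2669, 2430.3 and 2488 in knockout, without overlap (fold 1.32, limma adjusted p = 0.591). Ptprs, a phosphatase that is a receptor for chondroitin sulfate proteoglycans, read 3518, 3164 and 3452 against 3935, 4081 and 4376, also without overlap (fold 1.22, adjusted p = 0.591 in limma). Sdc3, a heparan sulfate proteoglycan, and Lrp1, a receptor of many ligands, had log2 changes of 0.22 and 0.20 with overlapping genotypes. Over all tested genes, 9.06% had every knockout array above every wild type array, and 5.38% had every one below.

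Relatives and partners of the co-receptors had a median of 0.11 over 12 tested genes, with 3 at an unadjusted p under 0.05. The tetraspanin Cd9 read 4234, 3551 and 3156 against 4954, 4242 and 4697 (fold 1.28), the sphingolipid receptor S1pr3 read 605, 513 and 527 against 888, 657 and 623 (fold 1.30), and the Lingo1 relative Lingo3 read 160.45, 274 and 227 against 297, 278 and 412 (fold 1.504). Each lay above wild type on all 3 knockout arrays, and limma adjusted p-values were 0.591, 0.598 and 0.599. Ntrk2, the receptor of Bdnf, had a log2 change of 0.18 and overlapped. Transducers behind the receptors had a median of 0.0082 over 20 tested genes, with 2 at an unadjusted p under 0.05. These were Cfl1, the actin-severing end point of the RhoA cascade, at 12387, 16028 and 12490 against 16723, 16102 and 18314, and the p75 partner Maged1 at 5147, 5249 and 6046 against 6616, 5965 and 6871, which overlapped. Adam17, which cuts p75, had a log2 change of 0.32 (limma adjusted p = 0.671), and Rhoa itself had -0.19 (limma adjusted p = 0.680).

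**Figure D4:**
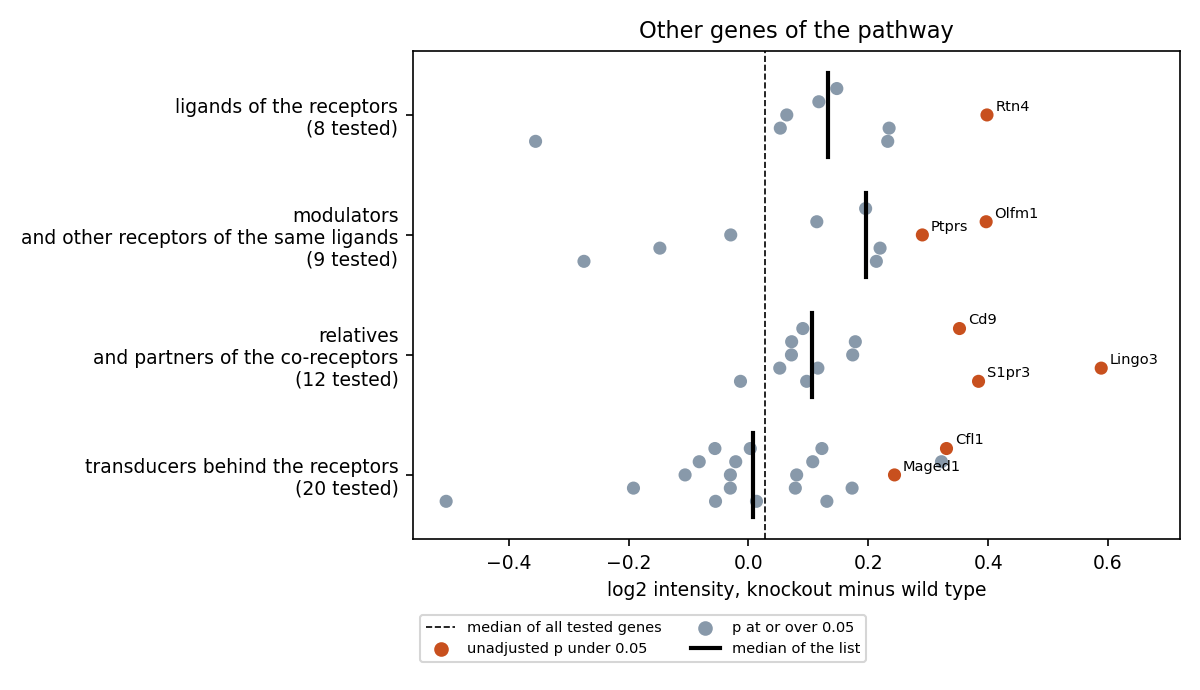
Difference in log2 intensity, knockout minus wild type, of 49 pathway genes (points) in 4 lists (rows), with list medians (black bars) and the median of all tested genes (dashed line, 0.028). The 8 genes with an unadjusted p under 0.05, named beside their points, all lie to the right, and none has an adjusted p under 0.591.

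Markers of the cell types a cord sample can hold were summed on each array. Neuron, oligodendrocyte, astrocyte and microglial markers were all tested where they were found, and of 4 motor neuron markers 2 were too dim. Knockout sums lay above all wild type sums for oligodendrocytes, for Schwann cells and for fibroblasts of the meninges and vessels, but such a sum follows its brightest probe sets. Nearly all of the Schwann cell sum was Pmp22. Both Schwann cell markers had an unadjusted limma p under 0.05 as higher, though the other marker, Ncmap, overlapped. Among the 5 fibroblast markers 4 had an unadjusted p under 0.05 as higher and 1 as lower. Over all tested genes these shares were 4.95% and 3.25%. Skeletal muscle markers summed to 10897 on knockout replicate 2, to 4938 on wild type replicate 3 and to 883 to 1702 elsewhere. None of these sums was used to adjust a value of the components.

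**Figure D5:**
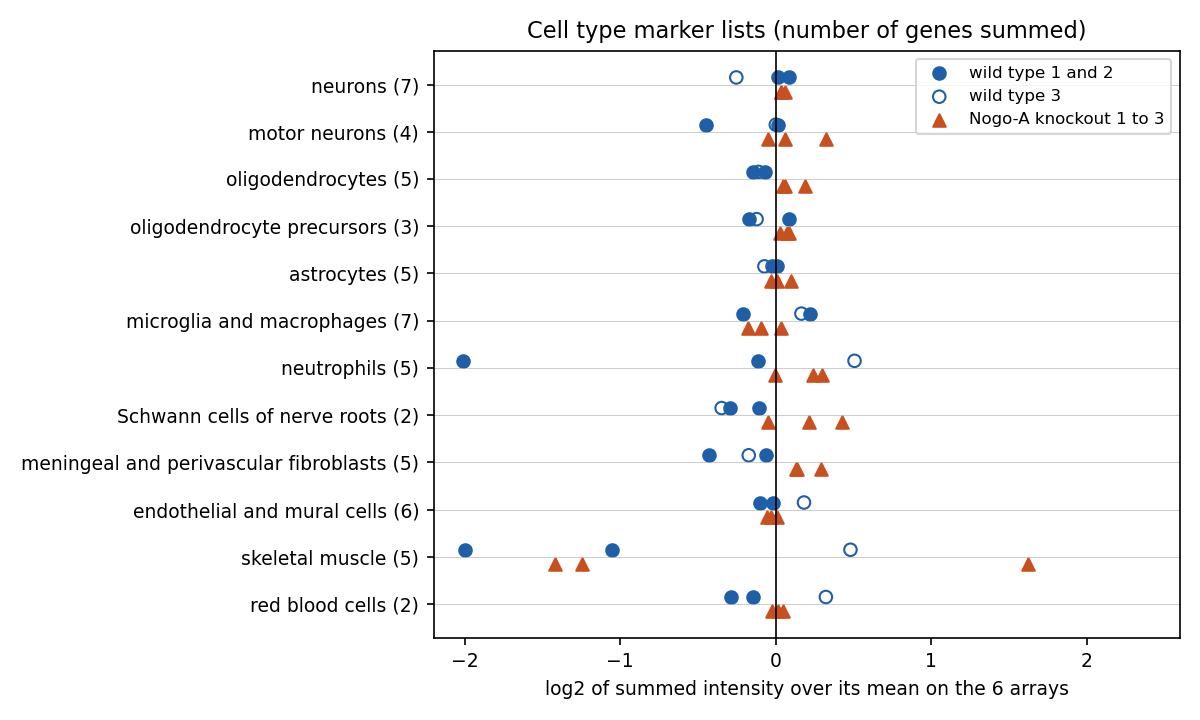
Log2 of the summed intensity of each marker list over its mean on the 6 arrays, with circles for wild type, open for replicate 3, and triangles for knockout. Muscle sums are highest on knockout replicate 2 (10897) and wild type replicate 3 (4938), the neutrophil sum is lowest on wild type replicate 1 (2261), and 3 lists separate the genotypes.

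The genes most like each component over the 6 arrays were named by the highest Pearson correlation of log2 intensities. They were Atp6v0a1 for Lingo1 (0.9987), Asb13 for S1pr2 (0.998), Sirpa for Ngfr (0.9985), Tfpi for Tspan3 (0.998), Sox18 for Rtn4rl1 (0.997), Clip4 for Tnfrsf19 (0.995) and Vim for Rtn4r (0.9899), each for the brightest tested probe set of the component. Each was picked as the highest among many probe sets over only 6 arrays, and so was likely to be high. Between 178 and 567 tested probe sets, or 0.757% to 2.41% of them, had a correlation over 0.9 with a given component, and all share the same arrays.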

How the data were processed

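Total RNA of 6 spinal cords was hybridised to 1 array each. The deposited intensities had been made by the authors with MAS5 under GCOS 1.4 (per the submitters' processing notes), already scaled, since the mean of each array without the lowest and highest 2% of values was 500.0. The GeneSpring 7.2 steps of the series' design text are not in these values. They were used as deposited and converted to log2, without the division by array medians that those steps would add, which is one of the other settings. The 64 control probe sets were left out, and dim probe sets were filtered at the 50th percentile of each array. The genotypes were compared in limma 3.58.1 (R 4.3.3; lmFit, eBayes with an intensity trend) over 23525 probe sets, with Benjamini-Hochberg adjustment over all of them. Exact permutation tests used SciPy 1.17.1. The model was tested on simulated data, in 5 simulations with 200 changed probe sets each, drawn from all those tested. At an adjusted p under 0.05 (limma) it recovered 29.3% of 1.5-fold, 69.6% of 2-fold and 88.2% of 4-fold changes. Precision is limited by the number of arrays, 3 a group. Scan dates were not given in the sources used here.

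Symbols are those of the platform's annotation table, brought up to date in RefSeq by gene identifier; 34945 probe sets had 1 symbol, 932 several and 9160 none. The sequences are RefSeq's for GRCm38.p6, and 8 of the 9 components had a window in that table. The components, lists and settings were chosen with earlier results of these data known. Named genes were every probe set of the components, up to 4 genes of each pathway list with the smallest p, and the gene most like each component. In a list, each gene stands as its brightest tested probe set. Other settings were division by the array median, quantile normalization, other filters, an offset of 50, a replicate block, no trend, omission of each array, and the methods' t-test.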

Additional observations from a re-analysis of the deposited data

How the results depend on the processing

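Under every setting tried, 0 component probe sets had an adjusted p under 0.05, with a smallest adjusted p of 0.322 in limma and 0.70 in the methods' t-test. The number with an unadjusted p under 0.05, 1 with the deposited scaling, was 3 after division by the array median and 2 after quantile normalization, where 13.0% and 6.47% of all tested probe sets had such a p against 8.29% with the deposited scaling. It was 0 with the 75th percentile filter (8.77% of all tested probe sets) and 0 in the methods' t-test with a fold of at least 1.2 (4.83%). With each array left out it was 0 to 2, where 4.1% to 14.2% of all tested probe sets had such a p. Over all tested probe sets the adjusted calls, 1 with the deposited scaling, were 0 without the trend and 0 to 9 with each array left out, and the methods' t-test at its own threshold called 1136 and after Benjamini-Hochberg adjustment 0. Pathway genes at an unadjusted p under 0.05, 8 of 49, were 15 after division by the array median and 4 to 13 with each array left out, the latter chosen after seeing the data. As a replicate block, the shared numbers of the titles gave 4 adjusted calls and 2 components at an unadjusted p under 0.05 (Rtn4r and Lingo1). Of all tested probe sets 9.89% had such a p with that block. But no source pairs the animals, and the deviations of same-numbered arrays correlated by -0.035, 0.074 and 0.11, with not every array closest to its own number. Signs turned as follows, and apart from that division the cause was not tested. Division by the array median, which moves all probe sets alike, gave 0.060 for Rtn4rl1 (1455664_at) and 0.12 and 0.087 for Tnfrsf19 (1448147_at and 1415921_a_at), and quantile normalization gave 0.089 for that Rtn4rl1 probe set and -0.024 for Tspan3. With each array left out, log2 changes ran from -0.45 to 0.12 and from -0.45 to 0.13 for Rtn4rl1 (1436868_at, 1455664_at), from -0.089 to 0.27 for Lingo1 (1437386_at), from -0.50 to 0.16 for Ngfr (1454903_at), from -0.17 to 0.0044, from -0.056 to 0.27 and from -0.21 to 0.021 for Tnfrsf19 (1448147_at, 1425212_a_at, 1415921_a_at), and from -0.037 to 0.16 for Tspan3. Rtn4rl2, Pirb and 2 of 3 Ngfr probe sets were below the median of every array. Their signals lie near the dim end, and no difference is read from them. In limma without a filter their log2 changes were 0.45 for Rtn4rl2, -0.45 for Pirb, and -1.83 and -0.84 for Ngfr (1450177_at, 1421241_at). The limma adjusted p-values were 0.874, 0.938, 0.642 and 0.848 in that order.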
